A study of Mus musculus with 24 samples.

Results

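The genes described here are 38 genes of macrophages and other phagocytes, taken as a named list, and all 38 were found among the 35460 genes of the annotation. They were read in mouse kidney RNA from 24 libraries of 2 experiments. The knockout experiment held 6 libraries labelled ENPP1 knockout (ENPP1 fl/fl with CAG-ERCre, induced with tamoxifen), 6 of wild-type mice that were negative for CAG-ERCre, both fed adenine for 14 days, and 4 of controls fed chow. The antibody experiment held 4 libraries with hENPP1 monoclonal antibody and 4 with control IgG, from mice fed adenine for 14 days and injected intraperitoneally with 50 mg/kg of the agent 2 times per week. CAG is a promoter active in most cell types, so the design is not specific to a kidney cell or to a phagocyte. The sources used here do not state the age, sex or strain of the mice, the adenine content of the diet, the genotype of the chow group, or tamoxifen treatment of the Cre-negative and chow groups. They also do not state whether the antibody experiment used mice with human ENPP1.

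Adenine is converted in the body to a poorly soluble product that forms crystals in kidney tubules, and tubule injury is followed by entry of monocytes, which mature into macrophages beside those already resident in the tissue. These cells live on signals through the CSF1 receptor, take up particles through scavenger, lectin and Fc receptors, and kill with the oxygen radicals of the NADPH oxidase. They also clear dying cells, a process called efferocytosis, and can present antigen with costimulatory proteins. ENPP1, the target of both experiments, is an enzyme on the cell surface that splits extracellular ATP and the cyclic dinucleotide cGAMP, the messenger of the cGAS and STING pathway.

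Most of these genes were higher on adenine than on chow and most were lower with the antibody than with IgG, while the knockout label went with few and small differences. Of the 37 genes that passed the filter on low counts, 32 rose and 3 fell in wild-type mice on adenine relative to chow, where 44.0% and 40.9% of all genes tested did so. With the antibody relative to IgG, 31 fell and 2 rose, where 28.0% and 27.2% of all genes did so. In the libraries labelled knockout, 6 fell and 2 rose relative to the wild type on the same diet, where 21.3% and 25.1% of all genes did so. Cyba, the p22phox subunit of the oxidase, and Mertk, a receptor for dying cells, moved against most of the other genes in each of these 3 comparisons. Levels are CPM, the assigned reads scaled to a common library total after TMM scaling, calls are adjusted p under 0.05 from the quasi-likelihood test of edgeR, and each log2 change carries its standard error (SE).

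**Figure D1:**
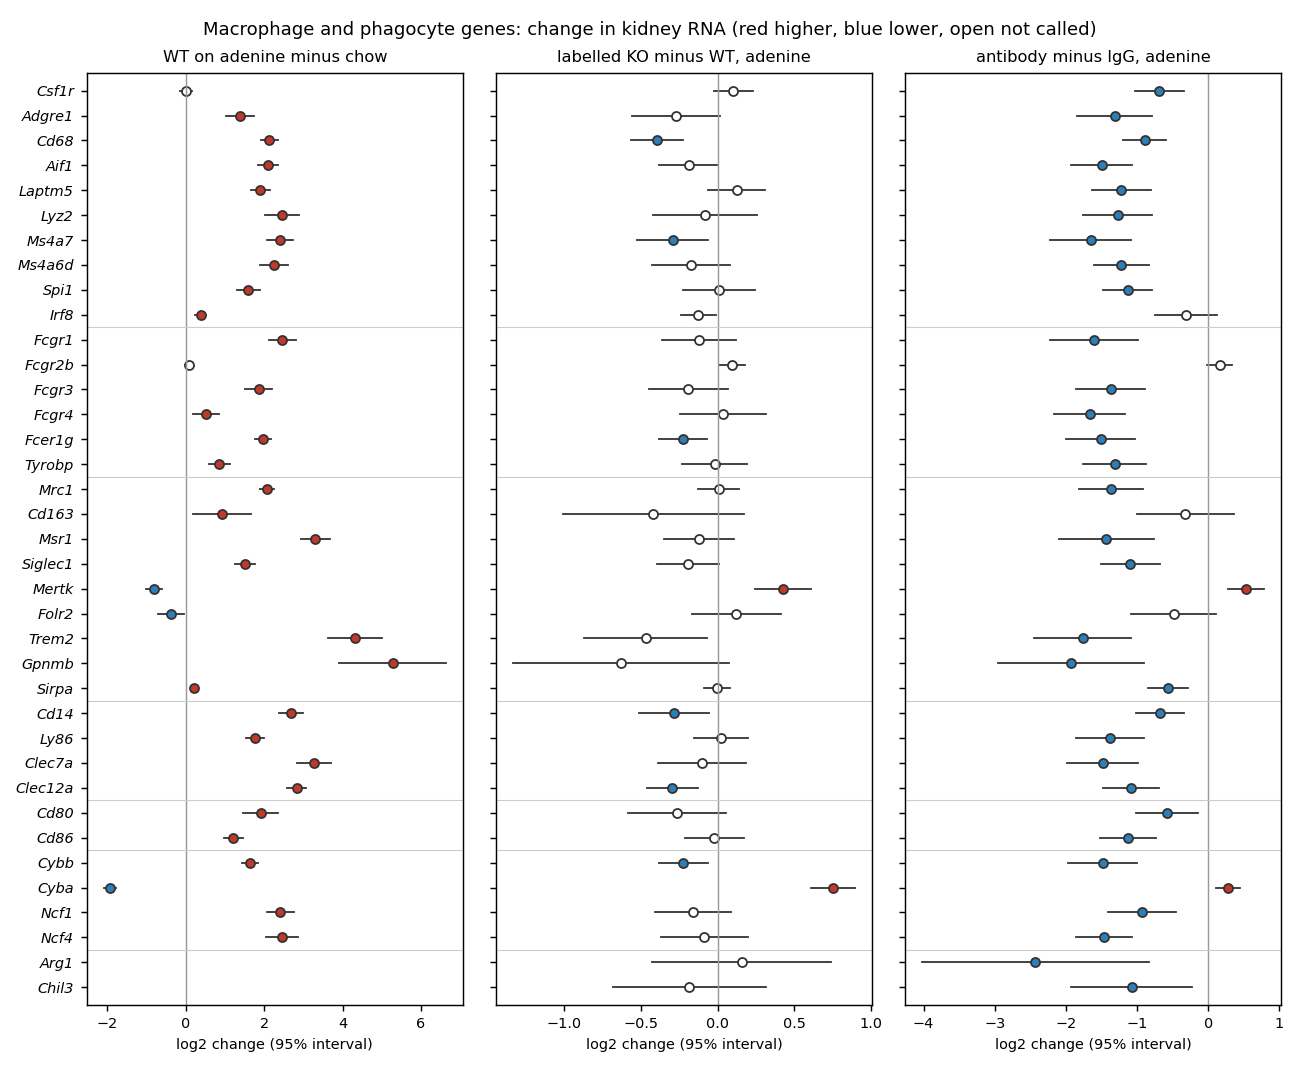
Log2 change of 37 genes with its 95% interval (horizontal bar) in wild-type mice on adenine relative to chow (left), in mice labelled knockout relative to wild type on adenine (middle) and with antibody relative to IgG (right). Most points lie right of 0 on the left and left of 0 on the right, and lines part the role groups. Arg1 and Chil3 are left out of the left panel because chow libraries held 3 and 1 of their reads.

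Assigned reads per library were 21354876 to 25995281 in the labelled knockout, 21057859 to 24949042 in the wild type on adenine, 26205594 to 28213689 on chow, 43886517 to 46575842 with the antibody and 46520886 to 50566596 with IgG. Markers of kidney epithelium such as Lrp2 and Umod were present in every group, as the tissue label requires. Enpp1 itself was not lower in the libraries labelled knockout, at 22.7 ± 1.19 CPM (SD, n = 6) against 22 ± 1.52 CPM in the wild type (log2 change 0.048 ± 0.051 SE, adjusted p = 0.465). The deleted exons are not given, and a count summed over the gene need not show a deletion, so the genotype is given below as labelled. Enpp1 had 8.19 ± 6.87 CPM with the antibody and 8.17 ± 0.751 CPM with IgG (n = 4 each), where the antibody acts on protein. Library 2 of the IgG group stood apart: it was the highest of its 4 libraries for 33 of the 37 genes, against 26.6% of all genes. The levels of the 2 experiments were scaled separately and are not compared between them.

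Per length of transcript, the order of the genes was led by the same gene in both adenine control groups. In TPM (transcripts corrected for their length and scaled to a common total), the wild type on adenine had 319 ± 43.4 of Cyba and 161 ± 60.2 of Lyz2, the lysozyme of macrophages and neutrophils (SD, n = 6). Fcer1g, the shared signalling chain of Fc receptors, followed at 96.9 ± 14.1 TPM. Tyrobp, the adaptor through which Trem2 signals, had 58.8 ± 12.1 TPM and Fcgr2b, the inhibitory IgG receptor, 58.2 ± 6.94 TPM, which do not differ beyond their spread. The IgG group began with Cyba at 231 ± 21.9 TPM, Lyz2 at 180 ± 87.1 TPM and Fcgr2b at 57.6 ± 11.8 TPM, and Lyz2 spread so widely there that its place next to Cyba is not separate from it. At the low end, Cd163 had 0.274 ± 0.103 TPM in the wild type on adenine and 0.212 ± 0.0625 TPM with IgG. Marco, a scavenger receptor of alveolar and splenic macrophages, had 2, 9 and 1 reads over all libraries of the labelled knockout, wild-type and chow groups. It had 5 reads with the antibody and 4 with IgG. It failed the filter in both experiments, and no fold change between labelled knockout and chow is given for it.

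On adenine, genes for macrophage identity rose in the wild type in 9 of 10 cases relative to chow, and the tenth, Csf1r, was the receptor on which the lineage depends. Of the 32 genes called higher, 27 rose by at least 2-fold, and of the 3 called lower 1 fell by at least 2-fold, where 23.3% and 18.3% of all genes did so. The median log2 change of the 37 genes was 1.91, against 0.0729 over all genes. The libraries of the 2 groups did not overlap for 32 genes, with 30 above chow (37.8% of all genes) and 2 below it (37.4%). In bulk RNA, more cells of a type and more RNA per cell cannot be told apart.

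Cd68, a lysosomal membrane protein of phagocytes, had 16.3 to 19.3 CPM (median 18.9) in the wild type on adenine, against 4.79, 3.56, 4.55 and 3.95 CPM on chow (log2 change 2.13 ± 0.11 SE, adjusted p = 7.68e-13). Adgre1, the F4/80 antigen of mouse macrophages, had 7.34 to 15.2 CPM (median 10.8) on adenine and 4.27, 4.19, 3.26 and 5.02 CPM on chow (log2 change 1.39 ± 0.17 SE, adjusted p = 3.8e-07). Lyz2 had 97.8 to 208 CPM (median 141) on adenine and 30.9, 28.2, 24 and 26.5 CPM on chow (log2 change 2.46 ± 0.21 SE, adjusted p = 1.49e-09). For each of these genes every adenine library lay above every chow library. Csf1r, in contrast, had 54 to 68.7 CPM (median 58.3) on adenine and 58.5, 54.7, 65.5 and 59.6 CPM on chow, ranges that overlap, with a log2 change of 0.0061 (95% interval -0.14 to 0.15, adjusted p = 0.937). Spi1, which encodes the myeloid transcription factor PU.1, rose (log2 change 1.60 ± 0.14 SE, adjusted p = 4.33e-09), while Irf8, a transcription factor of monocytes and dendritic cells, rose less (log2 change 0.38 ± 0.063 SE, adjusted p = 1.76e-05). Upper-quartile scaling raised the median of all genes by 0.226 in this comparison and called Csf1r higher, by 0.23, which is about that shift. In TPM the log2 ratio of Csf1r was 0.824, where the median ratio of all genes was 0.995.

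Apart from Arg1 and Chil3, which had 3 and 1 reads on chow, the 4 largest rises were in Gpnmb, Trem2, Msr1 and Clec7a. Gpnmb, a glycoprotein of lysosome-rich macrophages, had 21.9, 16.1, 4.69, 5.84, 5.22 and 5.5 CPM in the wild type on adenine, against 0.144, 0.314, 0.198 and 0.355 CPM on chow (log2 change 5.28 ± 0.65 SE, adjusted p = 3.66e-07). Replicates 1 and 2 of the wild type were 2 libraries far above the other 4, which held 4.69 to 5.84 CPM. Trem2, a lipid receptor that signals through Tyrobp, had 14.5, 12, 5.98, 8.2, 7.67 and 7.76 CPM on adenine, with the same replicates 1 and 2 highest, against 0.24, 0.733, 0.494 and 0.405 CPM on chow (log2 change 4.32 ± 0.33 SE, adjusted p = 3.71e-10). Leaving out each library in turn kept the changes at 4.87 to 5.50 for Gpnmb and 4.12 to 4.63 for Trem2. Msr1, the class A scavenger receptor, had 4.39 to 6.79 CPM (median 5.47) on adenine and 0.527, 0.419, 0.741 and 0.507 CPM on chow (log2 change 3.30 ± 0.18 SE, adjusted p = 1.65e-12). Clec7a, known as dectin-1, which binds fungal beta-glucan, had 14.3 to 27.2 CPM (median 16.9) on adenine and 1.92, 1.99, 1.53 and 2.38 CPM on chow (log2 change 3.27 ± 0.21 SE, adjusted p = 3.05e-11).

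All 4 genes of the group of microbial sensing and lectins rose, and so did both costimulatory genes. Cd14, the co-receptor for endotoxin, had 42.9 to 70.5 CPM (median 62) in the wild type on adenine, against 9.59, 9.69, 8.75 and 9.93 CPM on chow (log2 change 2.68 ± 0.15 SE, adjusted p = 2.98e-12). Clec12a, an inhibitory lectin of myeloid cells, had a log2 change of 2.83 ± 0.12, adjusted p = 5.01e-14, and Ly86, the MD-1 partner of the RP105 receptor, of 1.76 ± 0.11, adjusted p = 2.02e-11. Cd80 rose by 1.91 ± 0.21, adjusted p = 8.55e-08 and Cd86 by 1.21 ± 0.12, adjusted p = 1.15e-08 on the log2 scale. Arg1, an arginase of alternatively activated macrophages, had 0.837 to 2.51 CPM (median 1.48) in the wild type on adenine. These were 244 reads over the wild type on adenine and 3 over chow, a ratio of 41.4 in CPM with a counting interval of 14.0 to 202. Chil3, a chitinase-like protein of mouse macrophages, had 0.72 to 2.03 CPM (median 1.07) on adenine. These were 186 reads, against 1 over chow, a ratio of 94.7 with an interval of 16.8 to 3760. Both intervals cover counting error only, and that of Chil3 rests on the single chow read.

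Among the Fc receptors the activating ones rose and the inhibitory one was not called. Fcgr1, the high-affinity IgG receptor, had 7.38 to 13.3 CPM (median 10.6) in the wild type on adenine and 1.77, 1.89, 2.13 and 1.77 CPM on chow (log2 change 2.46 ± 0.16 SE, adjusted p = 3.67e-11). Fcer1g, which Fcgr1, Fcgr3 and Fcgr4 need to reach the cell surface, had 32.3 to 43.7 CPM (median 36.2) on adenine and 8.58, 8.8, 10.3 and 9.47 CPM on chow (log2 change 1.98 ± 0.098 SE, adjusted p = 5.71e-13). Fcgr4 rose by less (log2 change 0.52 ± 0.16 SE, adjusted p = 0.00515), and its libraries overlapped because replicate 5 of the wild type, at 3.46 CPM, lay below all 4 chow libraries, at 4.89, 3.72, 4.15 and 4.05 CPM. Fcgr2b had 61.6 to 69 CPM (median 65.4) on adenine and 62.8, 59, 63.3 and 61.4 CPM on chow (log2 change 0.083, 95% interval -0.012 to 0.18, adjusted p = 0.0942). It was called higher with an offset for transcript length (0.11, adjusted p = 0.0378) and with upper-quartile scaling (0.31, adjusted p = 3.44e-06). Fcgr2b and Fcgr3 share sequence outside their tails, so the division of reads between them is the estimate of the authors' quantification.

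The other genes of the list that rose were Aif1 (2.10), Laptm5 (1.90), Ms4a7 (2.40), Ms4a6d (2.25), Fcgr3 (1.85), Tyrobp (0.86), Mrc1 (2.08), Siglec1 (1.51), Sirpa (0.22) and Cd163 (0.93), given as log2 changes. Cd163 had the highest adjusted p among them, at 0.0211, and was not called with the length offset (adjusted p = 0.0658) or without chow replicate 2 (0.81, adjusted p = 0.062).

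Of the list, 3 genes were called lower on adenine after TMM scaling. The TMM factors were 0.717 to 0.741 on chow and 1.06 to 1.24 in the wild type on adenine. In TPM, Cyba was also lower, at 319 ± 43.4 on adenine and 643 ± 50.5 on chow. Mertk was not, at 13.8 ± 1.48 and 13 ± 0.16 TPM, nor was Folr2, at 7.73 ± 1.73 and 5.1 ± 1.38 TPM. The median log2 TPM ratio of all genes was 0.995, so the direction for Mertk and Folr2 depends on the scale. Cyba had 127 to 153 CPM (median 138) in the wild type on adenine and 551, 559, 490 and 543 CPM on chow (log2 change -1.94 ± 0.074 SE, adjusted p = 2.02e-14). Cybb, the catalytic gp91phox, rose (log2 change 1.64 ± 0.096 SE, adjusted p = 7.17e-12), as did the cytosolic subunits Ncf1 (2.41 ± 0.17, adjusted p = 7.42e-11) and Ncf4 (2.46 ± 0.19, adjusted p = 5.58e-10). Mertk, a receptor tyrosine kinase for dying cells coated with Gas6, had 33.4 to 45.3 CPM (median 35.9) on adenine and 59.9, 63.5, 69.2 and 69.2 CPM on chow (log2 change -0.81 ± 0.096 SE, adjusted p = 2.43e-07). Folr2, a folate receptor of resident macrophages, had 3.56 to 5.76 CPM (median 4.37) on adenine and 5.03, 5.24, 8.16 and 4.91 CPM on chow (log2 change -0.38 ± 0.15 SE, adjusted p = 0.0313). Chow replicate 3, at 8.16 CPM, was the only chow library above the range of the wild type, and without it Folr2 was not called (-0.15, adjusted p = 0.34). Folr2 was also not called in 3 other fits with 1 library left out, with the length offset (adjusted p = 0.117) or with upper-quartile scaling (adjusted p = 0.377). Of 8 markers of kidney epithelium, 7 fell and 1 rose in the same comparison, with summed levels of 3640 to 5080 CPM on adenine and 9070 to 10600 CPM on chow. Injured tubule markers rose in 11 of 11 cases (median 4.18), with summed levels of 14200 to 22000 CPM on adenine and 1820 to 2030 CPM on chow. These markers include Spp1, which is also one of the further macrophage genes counted below, and Il34, also one of the CSF1 receptor ligands counted below. Red blood cell genes fell in 5 of 5 cases (median -5.75), with summed levels of 12.5 to 35.6 CPM on adenine and 1070 to 1290 CPM on chow. The protein of Cyba also partners NOX4, an oxidase of tubule cells, and the part of the epithelium, of tubule injury or of blood in the results against chow was not tested.

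The libraries labelled knockout were also set against chow, the same 4 libraries that served the wild type. Of the 37 genes, 32 were called higher and 2 lower (Cyba, -1.19, and Mertk, -0.38), where 40.2% and 39.9% of all genes were. By at least 2-fold, 27 were called higher and 1 lower, where 18.6% and 11.3% of all genes were. The median was 1.75, against 0.0283 over all genes. The libraries did not overlap for 31 genes above chow (33.7% of all genes) and for 2 below it (36.0%). Csf1r, Cd163 and Folr2 were not called. Trem2 had 5.42 to 8.86 CPM (median 6.56) in the labelled knockout, against the chow values given above (log2 change 3.85 ± 0.34 SE, adjusted p = 3.83e-09). Gpnmb had 4.65 to 9.85 CPM (median 5.77) in the labelled knockout (log2 change 4.65 ± 0.67 SE, adjusted p = 3.5e-06). Arg1 had 1.07 to 3.07 CPM (median 1.52) and Chil3 0.744 to 1.37 CPM (median 1.04) in the labelled knockout, and their ratios to chow of 46.1 (15.6 to 225) and 84.3 (14.9 to 3350) again rest on 3 and 1 chow reads.

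**Figure D2:**
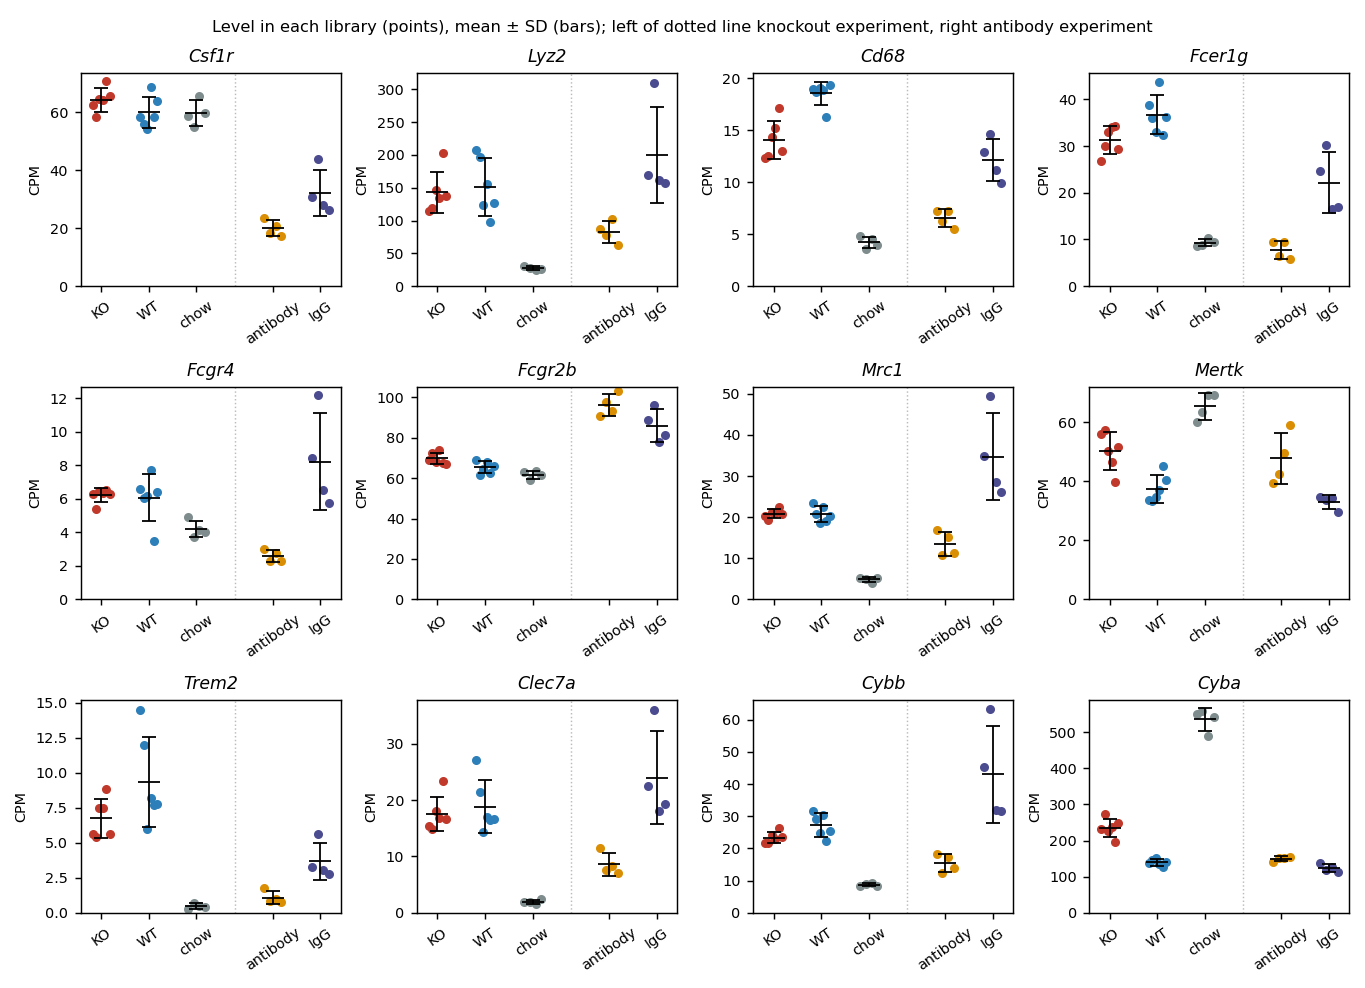
CPM of 12 genes in each library (points) with mean ± SD (bars), with the labelled knockout, wild type and chow left of the dotted line and antibody and IgG right of it, which were scaled separately. In the knockout experiment Cyba and Mertk are highest on chow, and in the antibody experiment they are higher with the antibody, where Lyz2, Fcgr4, Mrc1, Trem2 and Cybb are lower.

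Between labelled knockout and wild type on adenine, 29 of the 37 genes were not called and none changed by 2-fold. Over all genes, 3.24% were called higher and 0.354% lower by at least 2-fold. The shares of the list called, 2 higher and 6 lower of 37, were below the shares of all genes called in each direction. The median log2 change was -0.12, against -0.0202 over all genes. Cyba alone had libraries that did not overlap, above the wild type (14.4% of all genes did so above and 10.2% below). With upper-quartile scaling the share of higher calls over all genes was 40.8% in place of 54.1%, and 11 of the 37 genes were called lower in place of 6. Without wild-type replicate 4 the list had 2 genes called lower, and without wild-type replicate 5 it had 10.

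Cyba had 197 to 273 CPM (median 235) in the labelled knockout and 127 to 153 CPM (median 138) in the wild type (log2 change 0.75 ± 0.068 SE, adjusted p = 1.31e-07). Mertk had 39.7 to 57.2 CPM (median 50.9) in the labelled knockout and 33.4 to 45.3 CPM (median 35.9) in the wild type (log2 change 0.42 ± 0.087 SE, adjusted p = 0.000653). For both genes the mean CPM of the labelled knockout lay between those of the wild type and chow. In TPM this held for Cyba only. Mertk had 16.8 ± 1.81 TPM in the labelled knockout, 13.8 ± 1.48 in the wild type and 13 ± 0.16 on chow. Of the epithelial markers 7 of 8 rose in the same comparison, with summed levels of 5900 to 8730 CPM in the labelled knockout and 3640 to 5080 CPM in the wild type. Genes of red blood cells rose as well, 5 of 5 with a median of 3.93, with summed levels of 204 to 491 CPM in the labelled knockout and 12.5 to 35.6 CPM in the wild type. The part of the epithelium and of blood in the difference of Cyba and Mertk was not tested.

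The 6 genes called lower differed by small steps. Cd68 had 12.3 to 17.1 CPM (median 13.6) in the labelled knockout and 16.3 to 19.3 CPM (median 18.9) in the wild type (log2 change -0.40 ± 0.080 SE, adjusted p = 0.000557). Clec12a had 9.14 to 10.9 CPM (median 10.1) in the labelled knockout and 10.2 to 14.1 CPM (median 12.7) in the wild type (log2 change -0.29 ± 0.080 SE, adjusted p = 0.00576). These calls, and those of Cyba and Mertk, were kept when any single library was left out. Fcer1g had 26.7 to 34.4 CPM (median 31.6) in the labelled knockout and 32.3 to 43.7 CPM (median 36.2) in the wild type (log2 change -0.23 ± 0.075 SE, adjusted p = 0.0176). Cybb had 21.6 to 26.3 CPM (median 23.2) in the labelled knockout and 22.4 to 31.5 CPM (median 27.2) in the wild type (log2 change -0.22 ± 0.075 SE, adjusted p = 0.0206). Fcer1g lost its call without wild-type replicate 4 (adjusted p = 0.0586), and Cybb without wild-type replicate 1 (0.0573) or 4 (0.0606). Ms4a7, a membrane protein of macrophages, had 8.33 to 11.3 CPM (median 9.6) in the labelled knockout and 9.36 to 16.3 CPM (median 11.9) in the wild type (log2 change -0.29 ± 0.11 SE, adjusted p = 0.0373). Cd14 had 38.7 to 63.7 CPM (median 48.7) in the labelled knockout and 42.9 to 70.5 CPM (median 62) in the wild type (log2 change -0.28 ± 0.11 SE, adjusted p = 0.0412). Ms4a7 lost the call in 7 and Cd14 in 9 of the 12 fits with 1 library left out, and Ms4a7 also with the length offset (adjusted p = 0.171) and Cd14 with RLE scaling (adjusted p = 0.0513). Injured tubule markers such as Havcr1 fell in the same comparison in 7 of 11 cases. Their summed levels were 12700 to 17300 CPM in the labelled knockout and 14200 to 22000 CPM in the wild type. They include Spp1, also one of the further macrophage genes counted below, and Il34, also one of the CSF1 receptor ligands counted below. The part of these markers in these differences was not tested.

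The 29 genes not called had estimates from -0.63 for Gpnmb to 0.16 for Arg1. Mrc1, the mannose receptor CD206, had 19.3 to 22.6 CPM (median 20.9) in the labelled knockout and 18.5 to 23.4 CPM (median 20.6) in the wild type, with a 95% interval of -0.13 to 0.14 around a log2 change of 0.0059. Sirpa, the receptor for the "do not eat me" protein CD47, had an interval of -0.090 to 0.083. Trem2 and Gpnmb had the lowest estimates among genes not called, at -0.47 ± 0.19, adjusted p = 0.0507 and -0.63 ± 0.34, adjusted p = 0.135. For Gpnmb the labelled knockout had 5.79, 5.45, 6.75, 5.75, 9.85 and 4.65 CPM, against 21.9, 16.1, 4.69, 5.84, 5.22 and 5.5 CPM in the wild type, and apart from replicates 1 and 2 the wild-type values lie inside the range of the labelled knockout. With 1 library left out the estimate for Gpnmb lay between -0.80 and -0.23. Trem2 was called lower with DESeq2 (-0.46, adjusted p = 0.0453), with the length offset (-0.59, adjusted p = 0.0205) and with upper-quartile scaling (-0.53, adjusted p = 0.0307). Fcgr2b was called higher with DESeq2 (0.10, adjusted p = 0.0266), RLE scaling (adjusted p = 0.0389) and the length offset (adjusted p = 0.0353). Irf8 was called lower with the replicate block (-0.13, adjusted p = 0.0228), and Aif1 with the length offset (-0.22, adjusted p = 0.0488). With upper-quartile scaling Adgre1, Aif1, Irf8 and Siglec1 were also called lower.

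**Figure D3:**
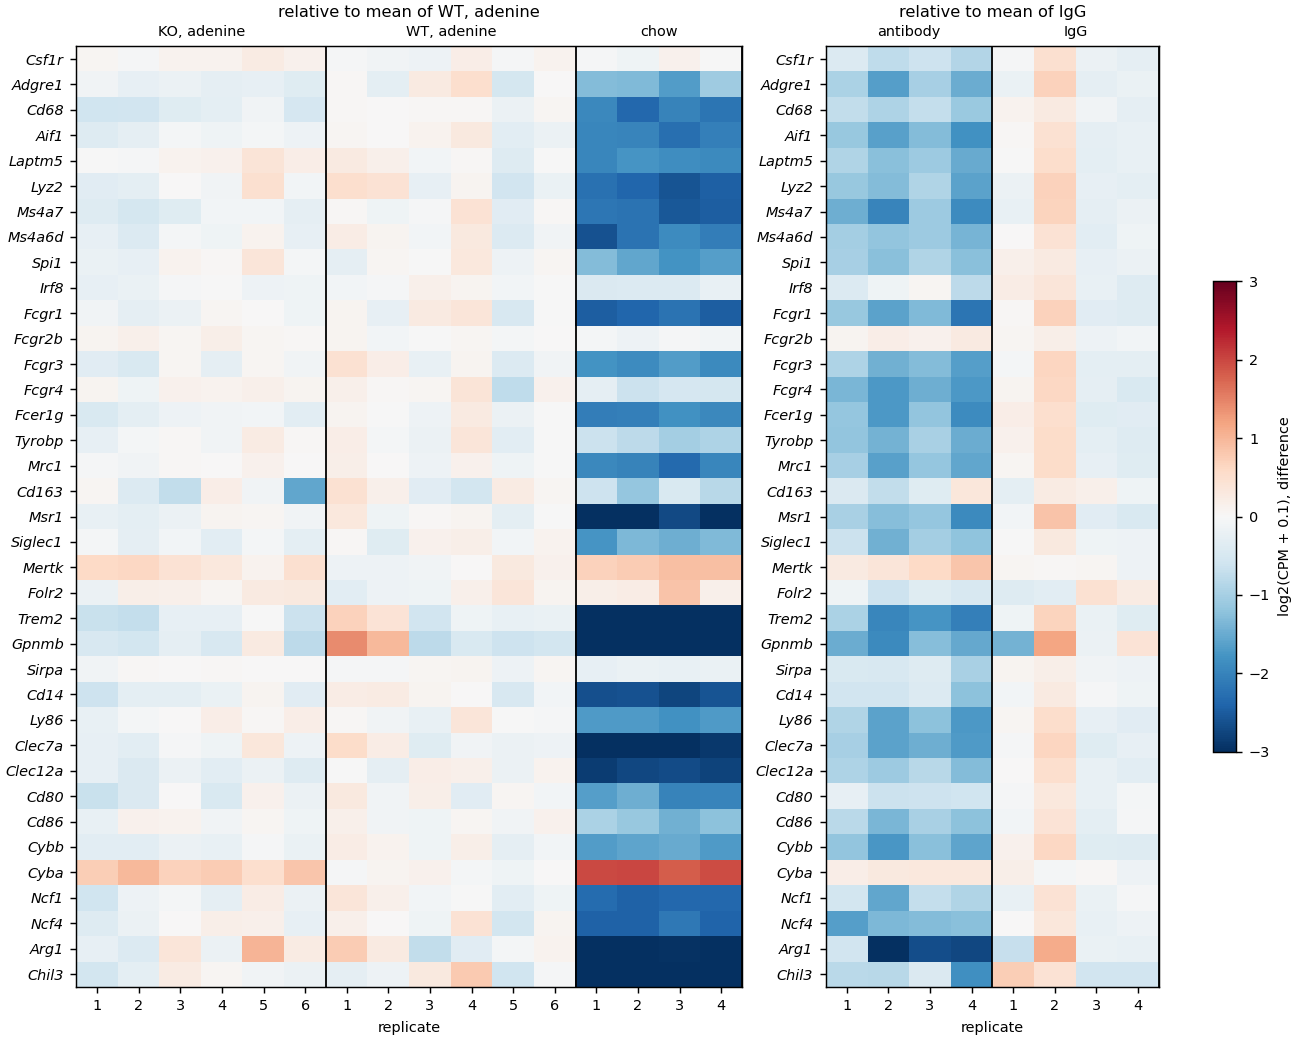
Each cell is the log2(CPM + 0.1) of a gene (row, in order of role) in a library (column) minus the mean of the wild type on adenine (left block) or of IgG (right block), with colours that stop at 3 either way. The antibody columns are blue for most rows except Cyba, Mertk and Fcgr2b, and the column of IgG replicate 2 is red for most rows.

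With the antibody, 31 of the 37 genes fell relative to IgG and 25 of them by at least 2-fold, with a median log2 change of -1.22 against -0.0363 over all genes. Over all genes, 7.26% were called lower and 4.09% higher by at least 2-fold. The libraries did not overlap for 28 genes below IgG (25.2% of all genes) and 2 above it (25.4%). Without IgG replicate 2, 29 genes were called lower, as Cd80 and Chil3 lost the call, and 3 were called higher. With upper-quartile scaling the median of all genes moved by -0.155, the share of higher calls among all genes was 31.1% in place of 49.3%, and 31 of the 37 genes were again called lower. Injured tubule markers fell in 8 of 11 cases in the same comparison. Their summed levels were 20800 to 34000 CPM with the antibody and 41900 to 45000 CPM with IgG. They share Il34 with the CSF1 receptor ligands counted below and Spp1 with the further macrophage genes counted below. The sums of the further macrophage genes were close, at 21100 to 33900 CPM with the antibody and 41500 to 44800 CPM with IgG. The tubule sums are therefore not a measure separate from macrophage genes, and the part of tubule injury in the lower level of the list was not tested.

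Of the lineage genes 9 of 10 fell. Adgre1 had 7.01, 4.27, 6.73 and 4.83 CPM with the antibody, against 11.8, 21.9, 11.3 and 11.8 CPM with IgG (log2 change -1.32 ± 0.24 SE, adjusted p = 0.000922). Csf1r had 23.6, 18.4, 20.6 and 17.2 CPM with the antibody and 30.7, 43.7, 27.9 and 26.3 CPM with IgG (log2 change -0.69 ± 0.16 SE, adjusted p = 0.00356). Cd68 had 7.21, 6.31, 7.24 and 5.47 CPM with the antibody and 12.9, 14.6, 11.2 and 9.94 CPM with IgG (log2 change -0.89 ± 0.14 SE, adjusted p = 0.000375). In all 3 genes each antibody library was below each IgG library, and IgG replicate 2 was the highest. Aif1, the calcium-binding protein IBA1, had 6, 4.24, 5.37 and 3.69 CPM with the antibody and 13.7, 18.5, 11 and 11.4 CPM with IgG (log2 change -1.50 ± 0.19 SE, adjusted p = 0.000153). Lyz2 had 87.3, 77.5, 103 and 63.2 CPM with the antibody and 170, 310, 162 and 157 CPM with IgG (log2 change -1.27 ± 0.22 SE, adjusted p = 0.000762). Laptm5, a lysosomal protein of blood cells, had 9.11, 7.12, 7.97 and 5.94 CPM with the antibody and 16.9, 24.8, 14 and 14.7 CPM with IgG (log2 change -1.22 ± 0.19 SE, adjusted p = 0.000375). Without IgG replicate 2 these genes were still called, and the weakest change of any fit with 1 library left out was -0.49 for Csf1r and -0.97 for Lyz2.

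Ms4a7 had 3.16, 2.18, 4.08 and 2.32 CPM with the antibody and 7.62, 14.2, 7.29 and 7.82 CPM with IgG (log2 change -1.65 ± 0.26 SE, adjusted p = 0.000425). Ms4a6d, of the same family of membrane proteins, had 3.19, 2.83, 3.02 and 2.43 CPM with the antibody and 6.65, 8.94, 5.21 and 5.95 CPM with IgG (log2 change -1.22 ± 0.18 SE, adjusted p = 0.000264). Spi1 had 3.41, 2.85, 3.66 and 2.87 CPM with the antibody and 7.66, 8.45, 5.83 and 6.13 CPM with IgG (log2 change -1.13 ± 0.15 SE, adjusted p = 0.000189). The groups stood apart for all 3 genes, with less spread for Spi1 than for Ms4a7. Irf8, with 13.4, 16.4, 18.6 and 10.4 CPM with the antibody and 20.9, 23.2, 15.4 and 13.7 CPM with IgG, was the lineage gene that was not called (log2 change -0.31, 95% interval -0.75 to 0.12, adjusted p = 0.198).

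Of the Fc receptors and adaptors 5 of 6 genes fell. These were the activating receptors, their chain Fcer1g, and Tyrobp, the adaptor of Trem2, while the inhibitory receptor was not called. Fcgr4, which binds IgG2a and IgG2b in mice, had 2.99, 2.32, 2.77 and 2.3 CPM with the antibody and 8.41, 12.2, 6.55 and 5.73 CPM with IgG (log2 change -1.66 ± 0.23 SE, adjusted p = 0.000198), 3.17-fold lower with the antibody. Fcgr1 had 3.75, 2.64, 3.28 and 1.73 CPM with the antibody and 8.49, 13.4, 6.55 and 6.37 CPM with IgG (log2 change -1.61 ± 0.28 SE, adjusted p = 0.000737). Fcgr3, the low-affinity activating receptor, had 15.1, 10.4, 11.6 and 9.06 CPM with the antibody and 27.6, 44.7, 23.2 and 23.5 CPM with IgG (log2 change -1.37 ± 0.22 SE, adjusted p = 0.000471). Without IgG replicate 2 the changes were -1.39 for Fcgr4, -1.30 for Fcgr1 and -1.09 for Fcgr3. Fcer1g had 9.48, 6.42, 9.37 and 5.76 CPM with the antibody and 24.7, 30.2, 16.6 and 17 CPM with IgG (log2 change -1.51 ± 0.22 SE, adjusted p = 0.000291). Tyrobp had 7.29, 6.28, 8.46 and 5.97 CPM with the antibody and 18.3, 24.7, 13.7 and 12.9 CPM with IgG (log2 change -1.31 ± 0.20 SE, adjusted p = 0.000351). Fcgr2b, which carries an inhibitory motif in its tail, had 90.8, 97.7, 92.9 and 103 CPM with the antibody and 88.6, 96.2, 77.6 and 81.3 CPM with IgG, ranges that overlap. Its log2 change of 0.16 had a 95% interval of -0.011 to 0.34 (adjusted p = 0.102). It was called higher without IgG replicate 2 (adjusted p = 0.0274).

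Scavenger and efferocytosis receptors fell in 6 of 9 cases. Mrc1 had 16.8, 10.9, 15.1 and 11.4 CPM with the antibody and 34.8, 49.5, 28.5 and 26.1 CPM with IgG (log2 change -1.36 ± 0.20 SE, adjusted p = 0.000328). Msr1 had 3.38, 2.71, 2.95 and 1.73 CPM with the antibody and 6.42, 12.4, 5.32 and 4.92 CPM with IgG (log2 change -1.43 ± 0.30 SE, adjusted p = 0.00247). Siglec1, a sialic acid receptor also called CD169, had 3.21, 1.79, 2.44 and 2.14 CPM with the antibody and 5.03, 6.28, 4.6 and 4.56 CPM with IgG (log2 change -1.10 ± 0.19 SE, adjusted p = 0.000703). The 2 groups did not overlap for these genes, and without IgG replicate 2 the change of Msr1 was -1.02. Trem2 had 1.78, 0.835, 0.961 and 0.775 CPM with the antibody and 3.25, 5.66, 3.08 and 2.75 CPM with IgG (log2 change -1.76 ± 0.31 SE, adjusted p = 0.000797). Gpnmb had 0.939, 0.672, 1.1 and 0.904 CPM with the antibody and 0.984, 6.49, 2.49 and 3.74 CPM with IgG (log2 change -1.93 ± 0.47 SE, adjusted p = 0.00503). Gpnmb overlapped between the groups because IgG replicate 1, at 0.984 CPM, was inside the antibody range, while IgG replicate 2 was at 6.49 CPM. Mertk rose instead, with 39.5, 42.6, 49.6 and 59.1 CPM with the antibody and 34.6, 33.7, 34.3 and 29.6 CPM with IgG, every antibody library above every IgG library (log2 change 0.53 ± 0.12 SE, adjusted p = 0.00283). Cd163, the haemoglobin scavenger receptor, and Folr2 were not called, at -0.32 ± 0.31, adjusted p = 0.396 and -0.49 ± 0.27, adjusted p = 0.146. Both averaged under 1 CPM in each group.

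Genes of microbial sensing, lectins and costimulation all fell. Cd14 had 47.7, 48.1, 53.6 and 30.3 CPM with the antibody and 67, 85.9, 69.9 and 64.9 CPM with IgG (log2 change -0.68 ± 0.16 SE, adjusted p = 0.0037). Clec7a had 11.5, 7.51, 8.27 and 7.08 CPM with the antibody and 22.6, 36.1, 18 and 19.3 CPM with IgG (log2 change -1.48 ± 0.23 SE, adjusted p = 0.00035). Clec12a had 6.96, 6.21, 7.45 and 5.4 CPM with the antibody and 13.6, 19.1, 11.5 and 10.8 CPM with IgG (log2 change -1.08 ± 0.18 SE, adjusted p = 0.000565). Cd14 fell by less than the lectins, and none of the 3 overlapped. Ly86 had 16.7, 10.2, 13.3 and 9.4 CPM with the antibody and 32.3, 45.3, 26.3 and 24.6 CPM with IgG (log2 change -1.38 ± 0.22 SE, adjusted p = 0.000427). Cd86 had 4.35, 2.9, 3.84 and 3.23 CPM with the antibody and 7.27, 10.3, 6.21 and 7.44 CPM with IgG (log2 change -1.13 ± 0.18 SE, adjusted p = 0.000459). Cd80 had 1.23, 0.904, 0.914 and 0.93 CPM with the antibody and 1.43, 1.86, 1.24 and 1.41 CPM with IgG (log2 change -0.58 ± 0.20 SE, adjusted p = 0.0292). Antibody replicate 1 of Cd80 came close to IgG replicate 3, and its call was lost without IgG replicate 2 (adjusted p = 0.104) and in 3 other fits with 1 library left out.

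In the NADPH oxidase, 3 subunits fell and Cyba rose. Cybb had 18.2, 12.3, 17.2 and 13.8 CPM with the antibody and 45.2, 63.4, 31.8 and 31.6 CPM with IgG (log2 change -1.48 ± 0.22 SE, adjusted p = 0.000302). Ncf4, the p40phox subunit, had 1.06, 1.32, 1.38 and 1.42 CPM with the antibody and 3.59, 4.54, 3.01 and 3.19 CPM with IgG (log2 change -1.47 ± 0.18 SE, adjusted p = 0.000111). Ncf1, the p47phox organiser, had 5.48, 2.69, 4.87 and 4.29 CPM with the antibody and 6.95, 11, 7.11 and 7.96 CPM with IgG (log2 change -0.93 ± 0.22 SE, adjusted p = 0.00402). In phagocytes gp91phox is held in the membrane by p22phox, and the genes of that pair moved in opposite directions. Cyba had 141, 152, 153 and 154 CPM with the antibody and 139, 119, 126 and 112 CPM with IgG (log2 change 0.27 ± 0.076 SE, adjusted p = 0.0111), and with upper-quartile scaling it was not called (0.12, adjusted p = 0.184). Epithelial markers, 6 of 8 of which rose, had summed levels of 4180 to 5840 CPM with the antibody and 2040 to 2590 CPM with IgG, and their part in the rise of Cyba and Mertk was not tested.

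The products of alternative activation fell as well, from low levels. Arg1 had 0.914, 0.0232, 0.141 and 0.129 CPM with the antibody and 0.834, 3.21, 1.23 and 1.2 CPM with IgG (log2 change -2.43 ± 0.72 SE, adjusted p = 0.0148). One antibody library, replicate 1, lay above an IgG library, and the estimate ran from -4.04 to -1.84 as single libraries were left out. Chil3 had 1.11, 1.09, 1.48 and 0.491 CPM with the antibody and 3.44, 2.79, 1.32 and 1.32 CPM with IgG (log2 change -1.08 ± 0.38 SE, adjusted p = 0.0333). It lost the call in 5 of the 8 fits with 1 library left out.

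The antibody and knockout effects, which share no library, were set against each other in a fit of the 20 adenine libraries. The difference is the knockout effect minus the antibody effect, and as one fit shares its estimate of spread and its filter it need not equal the difference of the values above. For 28 of the 37 genes it was called above 0 and for none below, where 16.3% and 21.6% of all genes were. By at least 2-fold it was called above 0 for 19 genes and below for none, where 4.84% and 1.21% of all genes were. The median was 1.07, against -0.0262 over all genes. With upper-quartile scaling the median of all genes moved by 0.156 and 69.1% of all calls were above 0 in place of 43.0%, while 29 of the 37 genes were called above 0 and none below. The 2 experiments differ in the mice, the depth and the controls as well as in the means of targeting ENPP1, and these cannot be told apart.

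The largest differences were in Arg1 (2.52 ± 0.74, adjusted p = 0.0107), Fcgr4 (1.62 ± 0.27, adjusted p = 0.000101), Fcgr1 (1.41 ± 0.29, adjusted p = 0.000776) and Ly86 (1.32 ± 0.23, adjusted p = 0.000145), given as log2 with SE. In the knockout experiment Fcgr4 had 5.42 to 6.55 CPM (median 6.32) in the labelled knockout and 3.46 to 7.74 CPM (median 6.29) in the wild type (log2 change 0.038 ± 0.13 SE, adjusted p = 0.839). Fcgr1 had 8.51 to 10.7 CPM (median 9.45) in the labelled knockout and 7.38 to 13.3 CPM (median 10.6) in the wild type (log2 change -0.12 ± 0.11 SE, adjusted p = 0.403). Ly86 had 17.6 to 23.6 CPM (median 20.7) in the labelled knockout and 17.5 to 26.2 CPM (median 20.1) in the wild type (log2 change 0.020 ± 0.084 SE, adjusted p = 0.864). All 3 genes, and Arg1 (log2 change 0.16 ± 0.28 SE, adjusted p = 0.675), overlapped between those groups. Mrc1, at 1.29 ± 0.20, adjusted p = 5.19e-05, combined a knockout effect of 0.0059 with an antibody effect of -1.36. Cyba rose in both experiments, by 0.75 with the knockout label and by 0.27 with the antibody, and its difference was 0.40 ± 0.11, adjusted p = 0.00527. For Mertk, at 0.42 and 0.53, the difference of -0.18 had a 95% interval of -0.51 to 0.14 and was not called (adjusted p = 0.379). Without a called difference, 4 genes fell with the antibody. Cd14 and Cd80 had 0.32 (interval -0.12 to 0.75) and 0.24 (interval -0.27 to 0.75), and Gpnmb and Chil3 had 1.22 (interval -0.18 to 2.63, adjusted p = 0.162) and 0.81 (interval -0.13 to 1.75, adjusted p = 0.165). Without wild-type replicate 1 the difference of Gpnmb was called (adjusted p = 0.0383). The call for Cd68 was lost in 7 and that for Ncf1 in 5 of the 20 fits with 1 library left out.

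**Figure D4:**
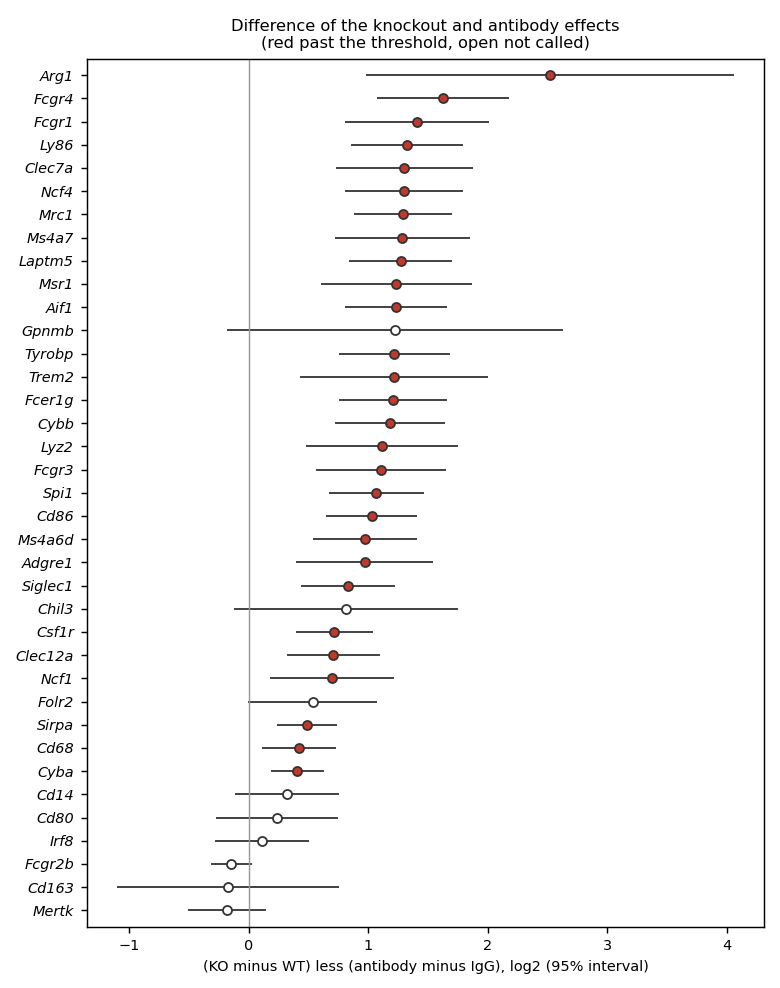
Log2 of the labelled knockout effect minus the antibody effect for 37 genes, sorted by size, with 95% intervals, where red points are past the threshold. The 28 red points are all right of 0, from Cyba at 0.40 to Arg1 at 2.52, and 3 open points (Mertk, Cd163 and Fcgr2b) are left of it.

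Ligands of the CSF1 receptor fell in the libraries labelled knockout, where most genes of the list were not called. Of 7 tested genes for CSF1 receptor ligands and monocyte traffic, all rose in the wild type on adenine relative to chow (44.0% of all genes). In the labelled knockout relative to the wild type, 3 fell and 1 rose (21.3% and 25.1% of all genes). With the antibody 5 fell (28.0% of all genes). The counts with the knockout label are too small to be told from those shares. Il34, a ligand of the CSF1 receptor made by tubule cells, is also one of the injured tubule markers counted above. It had 37.8 ± 5.3 CPM in the labelled knockout and 53 ± 4.79 CPM in the wild type (log2 change -0.49 ± 0.090 SE, adjusted p = 0.000236). It had 53.6 ± 5.23 CPM with the antibody and 57.2 ± 4.69 CPM with IgG (log2 change -0.093 ± 0.085 SE, adjusted p = 0.375), and the difference of the 2 effects was called (-0.47 ± 0.13, adjusted p = 0.00728). Csf1, the other ligand, fell in both experiments (-0.51 ± 0.073, adjusted p = 2.17e-05 with the knockout label and -0.66 ± 0.23, adjusted p = 0.0281 with the antibody), with a difference of 0.078 (95% interval -0.40 to 0.55, adjusted p = 0.813). Ccr2, the chemokine receptor of inflammatory monocytes, had 36.3 ± 3.14 CPM in the labelled knockout and 36.3 ± 1.64 CPM in the wild type (log2 change 0.0023 ± 0.055 SE, adjusted p = 0.978). With the antibody it had 38.7 ± 5.3 CPM, against 77.6 ± 24 CPM with IgG (log2 change -1.0 ± 0.19 SE, adjusted p = 0.00126).

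Of the partners of Mertk, one ligand moved with it and the other did not. Gas6, the ligand that bridges Mertk to dying cells, rose with the knockout label (0.18 ± 0.055, adjusted p = 0.0128) and with the antibody (0.46 ± 0.082, adjusted p = 0.000856), and fell in the wild type on adenine relative to chow (-0.36 ± 0.061, adjusted p = 2.56e-05). Axl, a receptor of the same family, fell with the antibody (-1.05 ± 0.13, adjusted p = 0.000114) and had -0.11 ± 0.051, adjusted p = 0.082 with the knockout label. Pros1, protein S, the other ligand of Mertk, fell with the antibody (-0.41 ± 0.12, adjusted p = 0.0126) and had -0.10 ± 0.051, adjusted p = 0.111 with the knockout label.

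Further macrophage genes that were not on the list went with it under the antibody. Of 21 tested, 15 fell and 1 rose, and of 5 other oxidase and kinase genes all fell. C1qa, C1qb and C1qc, the chains of complement C1q that tissue macrophages make, had log2 changes of -1.40, -1.44 and -1.51, each called lower. Their values with the knockout label were 0.054, 0.0044 and -0.072, none of them called. In the wild type on adenine relative to chow, 16 of 22 rose and 6 fell, and with the knockout label 5 of 22 rose and 4 fell, near the 25.1% and 21.3% of all genes. Itgam, the CD11b integrin of myeloid cells, had 25.7 ± 4.34 CPM in the wild type on adenine and 1.44 ± 0.207 CPM on chow (log2 change 4.15 ± 0.16 SE, adjusted p = 1.71e-14).

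Markers of other leukocytes are given here as levels beside the results on the list, as some moved in the same comparisons and others did not. Over all genes, 44.0% were called higher and 40.9% lower in the wild type on adenine relative to chow. With the knockout label 25.1% were called higher and 21.3% lower, and with the antibody 28.0% were called lower. All 5 markers shared by leukocytes, among them Ptprc (CD45), rose in the wild type on adenine relative to chow, none was called with the knockout label and all 5 fell with the antibody. Their summed level was 160 to 207 CPM in the labelled knockout, 163 to 207 CPM in the wild type and 77.4 to 87 CPM on chow, and 99.1 to 129 CPM with the antibody against 159 to 245 CPM with IgG. Of neutrophil markers, 9 of 9 tested rose in the wild type on adenine relative to chow, 1 of 9 fell with the knockout label and 4 of 7 fell with the antibody. Their summed level was 34.3 to 65.2 CPM in the labelled knockout, 47.3 to 70.8 CPM in the wild type and 9.2 to 13.5 CPM on chow, and 9.55 to 12.7 CPM with the antibody against 17.7 to 25.9 CPM with IgG. Of 14 such markers Camp and Elane had no read in either antibody group, Elane had none in the wild type, and Mmp8, Camp, Ngp and Elane had none on chow. T cell markers had 5 of 7 higher in the wild type on adenine, none of 7 called with the knockout label and 2 of 7 lower with the antibody, which is near the share of all genes called lower there (28.0%). Their summed levels were 17.1 to 22.3 CPM in the labelled knockout, 17.7 to 24 CPM in the wild type and 9.84 to 12.3 CPM on chow, and 6.68 to 9.54 CPM with the antibody against 9.71 to 13.7 CPM with IgG. Markers of B and plasma cells had 5 of 6 higher in the wild type on adenine, 1 of 6 lower with the knockout label and 2 of 4 lower with the antibody. Their summed levels were 20.7 to 31.9 CPM in the labelled knockout, 23.5 to 48.7 CPM in the wild type and 14.3 to 16.4 CPM on chow, and 9.81 to 12.4 CPM with the antibody against 20.8 to 33.1 CPM with IgG. Dendritic cell markers had 4 of 8 higher and 1 lower in the wild type on adenine, none called with the knockout label and 2 of 8 lower with the antibody, near the shares of all genes in those comparisons (44.0% higher on adenine, 28.0% lower with the antibody), with sums of 19.3 to 26.8 CPM with the antibody against 30.1 to 36.3 CPM with IgG. Markers of NK cells had 1 of 3 higher in the wild type on adenine (median -0.35), 1 of 3 higher with the knockout label and 1 of 4 lower with the antibody. Those of mast cells had 1 of 2 higher and 1 lower, 1 of 2 lower, and none of 1 called. The NK and mast cell lists are too small to be told from the shares of all genes. With the knockout label, the neutrophil and B cell counts, 1 of 9 and 1 of 6 lower, were below the share of all genes. Several genes of the list, such as Lyz2, Fcer1g, Tyrobp, Cybb, Ncf1 and Spi1, are also used by neutrophils, and the part of those cells in the results was not tested.

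For Sirpa the deposited transcript estimates showed more than the gene total. In total, Sirpa had 68.4, 67.4, 71.3 and 47.3 CPM with the antibody and 99.1, 106, 87.1 and 84 CPM with IgG (log2 change -0.57 ± 0.13 SE, adjusted p = 0.00318). The protein-coding transcript Sirpa-202 had 17.2, 19.3, 22.3 and 12.6 CPM with the antibody and 57.8, 64.0, 45.6 and 41.9 CPM with IgG. Sirpa-204, also protein-coding, had 47.8, 45.1, 45.7 and 33.0 CPM with the antibody and 36.1, 39.8, 36.9 and 37.5 CPM with IgG. The groups did not overlap for Sirpa-202, which made up 25.1% to 31.3% of the gene with the antibody and 49.9% to 60.1% with IgG, and overlapped for Sirpa-204. In the knockout experiment Sirpa-202 made up 38.3% to 49.5% of the gene in the labelled knockout, 42.4% to 51.1% in the wild type and 63.2% to 77.4% on chow. Sirpa-204 averaged 44.1 ± 3.6 CPM in the labelled knockout, 41.8 ± 5.62 CPM in the wild type (SD, n = 6 each) and 22.6 ± 4.87 CPM on chow (n = 4). These values are a description with no test. The division between transcripts is estimated by the authors' quantification, and Sirpa has close paralogs.

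**Figure D5:**
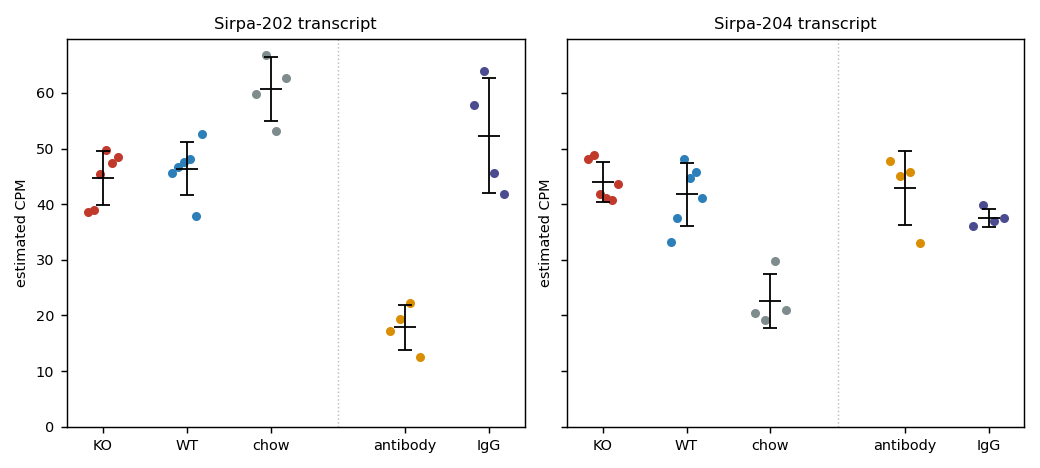
Estimated CPM of transcripts Sirpa-202 and Sirpa-204 in each library (points) with mean ± SD (bars), with the knockout experiment left and the antibody experiment right of the dotted line. Sirpa-202 is at 12.6 to 22.3 CPM in the antibody libraries and 41.9 to 64.0 CPM in the IgG libraries, while Sirpa-204 is lower on chow than in the other groups of the knockout experiment.

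For Mertk the share of Mertk-202 in the gene overlapped between the groups of each experiment. Mertk-201, its protein-coding transcript, averaged 27.2 ± 5.15 CPM in the labelled knockout, 17.7 ± 2.8 CPM in the wild type (SD, n = 6 each) and 33.2 ± 7.16 CPM on chow (n = 4), and 38.6 ± 5.73 CPM with the antibody against 29.2 ± 2.95 CPM with IgG (n = 4 each). The processed transcript Mertk-202 held 38.1% to 53.9% of the reads of the gene in the labelled knockout, 49.6% to 55.0% in the wild type and 41.2% to 57.8% on chow, and 15.3% to 22.6% with the antibody against 3.68% to 18.1% with IgG.

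As most of these genes moved together with the antibody, the promoters in the RefSeq table for GRCm38.p6 were read for a sequence bound by PU.1, the product of Spi1. The table held 26 of the 38 genes in 31 windows. The motif searched was GAGGAA on either strand, whose reverse is TTCCTC. In the 100 bases before the start it was in 11 of the 31 windows (35.5%), against 9.82% of all 32851 windows of that length. Over 250 bases it was in 13 of 31 (41.9%), against 23.3%. The 9 genes with a match within 100 bases (Mrc1, Fcgr1, Fcgr3, Fcgr4, Trem2, Clec7a, Clec12a, Laptm5 and Aif1) all belong to the genes lower with the antibody, as did 19 of the 26 genes with a window. A second form, GGAAGT or ACTTCC, was in 8 of the 31 windows and in 3294 of all 32851 windows over 100 bases. Of its 8 genes 6 were lower with the antibody, and Fcgr2b and Folr2, which were not called, also hold it. A match is a string of letters, not a measured binding site, and these genes were listed for being expressed in myeloid cells.

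The 100 bases before the start are shown for the IgG receptors, as a group whose members moved differently, and for the pair of genes that rose with the antibody, with GAGGAA or TTCCTC in capitals. They are Fcgr1 (chr3:96293970-96294069, minus strand), Fcgr3 (chr1:171059404-171059503, minus strand), Fcgr4 (chr1:171018826-171018925, plus strand), Fcgr2b (chr1:170976072-170976171, minus strand), Mertk (chr2:128698815-128698914, plus strand) and Cyba (chr8:122432941-122433040, minus strand), each 5′ to 3′ on the strand of its gene.
Fcgr1: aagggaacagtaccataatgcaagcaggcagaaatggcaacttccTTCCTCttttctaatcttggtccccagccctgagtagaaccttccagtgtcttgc
Fcgr3: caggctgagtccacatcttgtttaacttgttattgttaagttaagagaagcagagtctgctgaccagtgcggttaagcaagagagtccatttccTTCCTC
Fcgr4: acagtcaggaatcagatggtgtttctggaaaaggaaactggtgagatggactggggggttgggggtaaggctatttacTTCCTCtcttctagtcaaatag
Fcgr2b: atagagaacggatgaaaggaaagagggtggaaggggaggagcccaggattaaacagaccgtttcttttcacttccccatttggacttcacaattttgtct
Mertk: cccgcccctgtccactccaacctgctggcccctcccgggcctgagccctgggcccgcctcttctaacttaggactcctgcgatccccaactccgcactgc
Cyba: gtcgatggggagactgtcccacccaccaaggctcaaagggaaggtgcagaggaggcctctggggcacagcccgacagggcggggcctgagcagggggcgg
The Fcgr2b, Mertk and Cyba windows hold no GAGGAA or TTCCTC, which says only that these letters are not in this window, and that of Fcgr2b holds the second form. The Fcgr3 window, one of 2 in the table for that gene, ends in the motif at the start site. For a gene with more than 1 window, the first window with GAGGAA or TTCCTC was chosen for display where any had it. Trem2, Clec12a and Laptm5, also lower with the antibody, are shown likewise (Trem2 chr17:48346301-48346400, plus strand, Clec12a chr6:129350144-129350243, plus strand and Laptm5 chr4:130913216-130913315, plus strand).
Trem2: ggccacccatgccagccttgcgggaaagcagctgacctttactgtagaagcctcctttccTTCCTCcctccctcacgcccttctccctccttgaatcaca
Clec12a: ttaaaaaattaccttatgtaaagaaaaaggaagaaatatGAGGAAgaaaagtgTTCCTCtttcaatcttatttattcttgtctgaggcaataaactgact
Laptm5: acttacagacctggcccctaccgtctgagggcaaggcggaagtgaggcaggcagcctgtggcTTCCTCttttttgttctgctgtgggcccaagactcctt
Clec12a has 2 matches, 1 on each strand.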

How the data were processed

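Per the labels' protocols, 400 ng of total kidney RNA was made into stranded libraries. The submitters' processing notes name Salmon, GRCm39, FastQC, DESeq and DESeq2, without versions. Deposited by the authors were estimated counts per transcript, which are expected counts and are not normalized, and TPM, per the file headers. Effective lengths, per the file headers, served only as an offset in an alternative. Replicates were not pooled. Estimated counts were summed per gene through transcript identifiers without versions in GENCODE M21 (GRCm38) and rounded to whole numbers. This left out 0.439% to 0.527% of reads. TPM was used to order genes within a group and as a second scale in the knockout experiment, and entered no test.

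In R 4.3.3 with edgeR 4.0.16, counts were filtered (filterByExpr), scaled by TMM and given to the quasi-likelihood F test, with Benjamini-Hochberg adjustment over all genes (16965 in the knockout experiment, 16410 in the antibody experiment and 17119 in the fit of both), two-sided, at a threshold of 0.05. SE was derived from the F statistic and 95% intervals from its total degrees of freedom. The members and lists were chosen with earlier results of these data known. All members may be named; values per library are given for those called in the knockout or antibody comparison, and for the 4 largest changes each way against chow. Alternatives were RLE and upper-quartile scaling, no filter, DESeq2 1.42.0, a transcript-length offset, the replicate number as a block, and leaving out each library. The test was checked on simulated data with equal spread in all groups and no outlying library. That check does not cover the wider spread of the IgG group or a library such as its replicate 2. P-values measure the spread between these samples; no label says more of their origin. Ratios with a group of 3 reads or fewer have exact 95% counting intervals; intervals cover counting error only.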

Additional observations from a re-analysis of the deposited data

Results flagged for a closer look

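Of 190 groups of 1 gene in 4 or 6 libraries, those with more than 3 reads were given a gap test for a single outlying library. Marco, Arg1 and Chil3 on chow and Marco in the labelled knockout were left out. The test marked 16 groups, where chance marks about 1 in 20. In the IgG group, replicate 2 was far above the other 3 libraries for Adgre1 (21.9 CPM), Lyz2 (310 CPM), Ms4a7 (14.2 CPM) and Arg1 (3.21 CPM). In the antibody group, replicate 1 was high for Cd80 (1.23 CPM) and Arg1 (0.914 CPM) and low for Cyba (141 CPM), and replicate 4 was low for Sirpa (47.3 CPM). In the labelled knockout, replicate 5 was high for Lyz2 (203 CPM), replicate 2 low for Fcgr4 (5.42 CPM) and replicate 1 low for Sirpa (92.0 CPM). Wild-type replicate 5 was low for Cd68 (16.3 CPM). On chow, replicate 3 was high for Ncf4 (1.48 CPM) and Folr2 (8.16 CPM) and low for Ly86 (5.78 CPM), and replicate 4 was high for Irf8 (28.7 CPM).

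The labelled knockout effect minus the antibody effect was called above 0 for 28 genes by the edgeR test of that difference, given here as log2. Lineage genes had 0.97 (Adgre1), 0.42 (Cd68), 0.72 (Csf1r), 1.12 (Lyz2), 1.27 (Laptm5), 1.23 (Aif1), 1.28 (Ms4a7), 0.97 (Ms4a6d) and 1.06 (Spi1). Fc receptors and adaptors had 1.41 (Fcgr1), 1.10 (Fcgr3), 1.62 (Fcgr4), 1.21 (Fcer1g) and 1.22 (Tyrobp). Scavenger and efferocytosis receptors had 1.29 (Mrc1), 1.23 (Msr1), 0.83 (Siglec1), 1.22 (Trem2) and 0.49 (Sirpa). The remaining genes had 1.30 (Clec7a), 0.71 (Clec12a), 1.32 (Ly86), 1.03 (Cd86), 1.18 (Cybb), 0.40 (Cyba), 0.70 (Ncf1), 1.30 (Ncf4) and 2.52 (Arg1).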

How the results depend on the processing

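Of the values recomputed with another setting, 1068 kept their direction and side of the threshold, 11 lost and 18 gained a call, and 13 changed sign. Under these settings the counts of all genes and of members stayed within 1.5 times the reported ones except with upper-quartile scaling. That scaling called 11 members lower with the knockout label, called 1 member higher with the antibody, and gave 4504 genes above and 2012 below 0 for the difference of the effects, where TMM gave 2788 and 3697; the cause was not tested. Signs changed only for values that were not called. In the wild type relative to chow, Csf1r was -0.0051 with DESeq2, -0.0051 with RLE scaling and -0.025 with the replicate block. With the knockout label, Sirpa was 0.0046 with DESeq2, 0.0042 with RLE scaling and 0.0019 with the length offset, which also gave Spi1 -0.0056 and Mrc1 -0.011. Upper-quartile scaling gave Fcgr4 -0.025, Ly86 -0.045, Spi1 -0.052 and Mrc1 -0.057 there, and 0.013 for Fcgr2b in the difference of the effects.

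With 1 library left out, the members called lower with the knockout label numbered 2 to 10. Signs changed in that comparison for Arg1 (-0.095 to 0.35), Cd86 (-0.056 to 0.014), Chil3 (-0.30 to 0.022), Clec7a (-0.21 to 0.029), Fcgr4 (-0.083 to 0.12), Ly86 (-0.022 to 0.10), Lyz2 (-0.21 to 0.031), Mrc1 (-0.025 to 0.043), Ncf4 (-0.18 to 0.0092), Sirpa (-0.031 to 0.016), Spi1 (-0.075 to 0.082) and Tyrobp (-0.078 to 0.060). They changed for Csf1r in the wild type relative to chow (-0.015 to 0.078), and for Cd163 (-0.33 to 0.15) and Irf8 (-0.026 to 0.24) in the difference of the effects.

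Same-numbered libraries did not deviate together (correlations of -0.144 to 0.0686). The labels do not say that replicate numbers pair the mice, and with so few libraries this check cannot exclude it. With the replicate block, 2 members were called higher and 5 lower with the knockout label, 2 and 30 with the antibody, and 26 and 0 in the difference of the effects. The calls not made with the block were Cybb (adjusted p = 0.0557) and Cd14 (0.0889) with the knockout label, Cd80 (0.0563) with the antibody, and Cd68 (0.0522) and Ncf1 (0.117) in the difference. Gained with the block were lower calls for Irf8 with the knockout label (0.0228) and for Folr2 in the labelled knockout relative to chow (0.0375). Marco and Cd163 averaged under 1 CPM in every group, so their values rest on few reads. Whether depth is the cause was not tested.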
